A study of Mus musculus with 23 samples.

Results

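Nuclear genes that encode subunits of the oxidative phosphorylation complexes were described in the colon of HFD-fed Cdx2Apc f/w mice colonized with BF BSHlow or BF BSHhigh. Members were taken by symbol, as the rows whose names start with Nduf followed by a, b, c, s or v and a digit, with Uqcr, with Cox4 to Cox8 or with Atp5, together with Sdha, Sdhb, Sdhc and Sdhd, without symbols that mark pseudogenes by -ps. These were 89 of the 55449 gene rows used, with 88 distinct symbols, since Atp5o has a second identifier at 0 counts. Of them 40 belong by name to complex I, 4 to complex II, 8 to complex III, 19 to complex IV and 18 to complex V.

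The study asked whether bile salt hydrolase of B. fragilis acts on colon tumors. Male mice of the C57BL/6 background, aged 6 to 8 weeks at the start, had 1 floxed allele of Apc that was deleted by Cre under the Cdx2 promoter, and they were fed a diet with 60% of energy from fat. After antibiotics all of them received B. fragilis 638R, either with an empty vector (BF BSHlow) or with an added bsh gene of another B. fragilis strain (BF BSHhigh). Every group therefore carried the Apc deletion, the diet, the antibiotic course and the same bacterial strain background, and no uncolonized or wild-type mice were among the libraries. RNA was sequenced from normal colon after 2 weeks (4 libraries for each strain), and after 12 weeks from non-tumor tissue (4 for each strain) and from tumors (4 BF BSHlow and 3 BF BSHhigh). The labels number the libraries and name no animals, so the p-values measure the spread between these libraries.

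Oxidative phosphorylation couples the oxidation of NADH and succinate to the synthesis of ATP in the inner mitochondrial membrane. Complexes I and II pass electrons to ubiquinone, complex III passes them to cytochrome c, complex IV reduces oxygen, and the proton gradient built by complexes I, III and IV drives ATP synthase, which is complex V. Complex II is encoded wholly in the nucleus, whereas the other complexes also hold a few core subunits encoded in mitochondrial DNA, and the maturing colonocytes at the surface of the crypt are known for using butyrate as a fuel for this chain.

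Total expected counts were between 12401388 and 17903008 per library, with a median of 15874872. The 3 columns of the BF BSHhigh tumors are known by group only and are called a, b and c. Epithelial markers (Epcam, Cdh1, Krt8, Krt18, Krt19 and Vil1) were present in all libraries, and their summed level in CPM, the counts scaled to TMM-normalized library sizes, was lowest in a BF BSHlow tumor, at 4512 CPM. Replicate 4 of the BF BSHlow non-tumor tissues stood apart with high levels of many members, and the counts that turn on it are also given without it.

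Of the 89 members, 4 had 0 counts in all 23 libraries: Cox7b2 and Cox8c, known as testis isoforms, Ndufa11b, and the second row of Atp5o. A further 4 had too few counts to be tested anywhere. Cox8b, the muscle isoform of subunit VIII, had 22 counts summed over the BF BSHlow and 23 over the BF BSHhigh non-tumor libraries, against 3 in the tumors of either strain and 0 and 1 at 2 weeks. Cox6a2, the muscle isoform of subunit VIa, had at most 10 counts in any group. The processed pseudogenes Cox6c2 and Ndufs6b were also near 0. Ndufb4c, a processed pseudogene of Ndufb4, was counted at 656 expected counts on average against 353.7 for Ndufb4 itself, and since RSEM divides reads between near-identical copies the values of both are uncertain. In 70 members every count was whole, and 19 had a fractional count in at least 1 library. Per kilobase of merged exon, the most abundant members in BF BSHlow non-tumor tissues were Cox8a with 469 CPM per kb, Atp5a1 with 449 and Cox6b1 with 445. This order depends on the merged length, which joins all annotated exons of a gene. Atp5b, with 4237 merged bases, had the highest mean count of all members (23197, against 19774 for Atp5a1).

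As a share of all counts, the members together made up 1.75 ± 0.0686% (SD, n = 4) of the BF BSHlow and 1.78 ± 0.181% (SD, n = 4) of the BF BSHhigh libraries at 2 weeks. In non-tumor tissues they made up 1.63 ± 0.184% (SD, n = 4) and 1.53 ± 0.0663% (SD, n = 4). In tumors the share was 1.11 ± 0.0260% (SD, n = 4) with BF BSHlow and 1.23 ± 0.109% (SD, n = 3) with BF BSHhigh. All 7 tumor libraries were below all 16 others. The 13 subunit mRNAs encoded in mitochondrial DNA made up 10.5 ± 2.96% and 10.7 ± 3.02% at 2 weeks, 4.95 ± 0.312% and 4.91 ± 1.20% in non-tumor tissues, and 2.75 ± 0.367% and 2.74 ± 0.0707% in tumors (BF BSHlow and BF BSHhigh, SD). Divided by these, the nuclear members stood at 0.176 ± 0.0457 and 0.179 ± 0.0597 of the mitochondrially encoded counts at 2 weeks, 0.329 ± 0.0294 and 0.321 ± 0.0547 in non-tumor tissues and 0.408 ± 0.0551 and 0.448 ± 0.0306 in tumors. The mitochondrial share thus differed between time points by more than the nuclear share did, and a share of all counts moves with whatever else is abundant in a library.

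**Figure D1:**
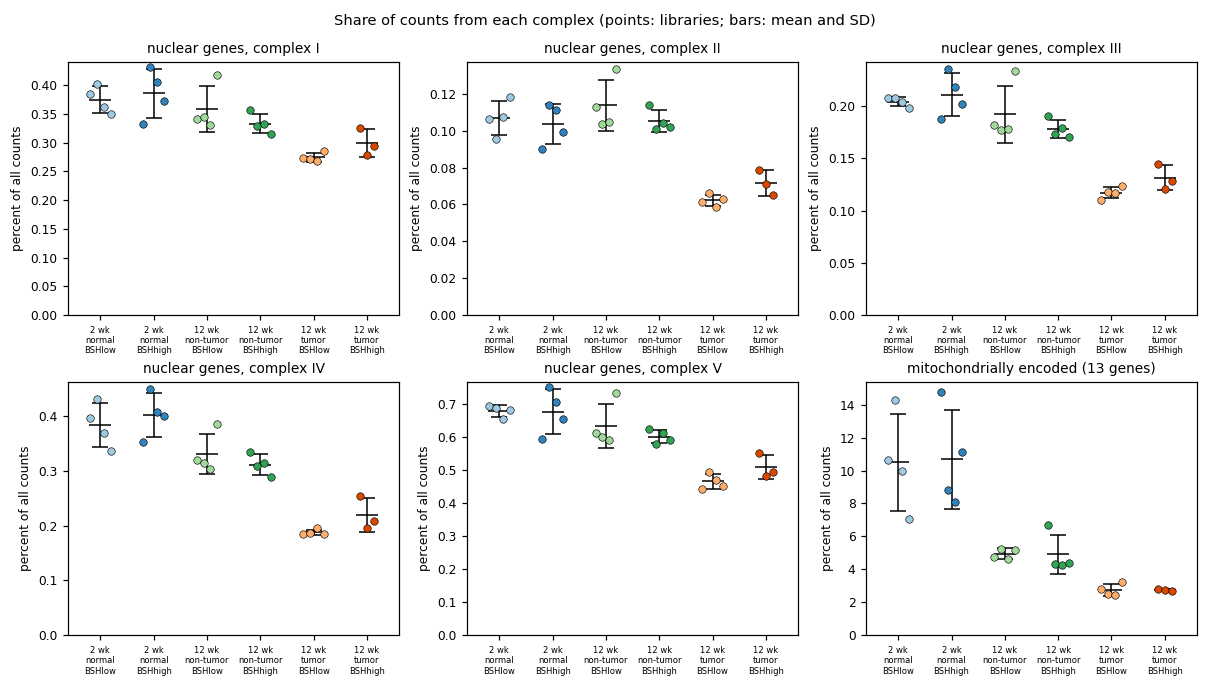
Share of all counts (percent, linear axes from 0) taken by the nuclear members of complexes I to V and by the 13 mitochondrially encoded subunits, with a point for each library and bars for the mean and SD of each group. In every nuclear panel the tumor mean lies below the non-tumor mean of the same strain, and libraries of these groups overlap in complex I with BF BSHhigh, while the mitochondrially encoded panel also separates 2 weeks (means of 10.5% and 10.7%) from 12 weeks.

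Tumors were compared with non-tumor tissues to ask how the chain differs in the tumor. With BF BSHlow, 75 of 81 tested members fell and 3 rose in tumors (edgeR quasi-likelihood test, adjusted p under 0.05 over all genes tested), where 29.7% of all 15179 genes tested were lower and 31.6% higher. With BF BSHhigh, 67 of 81 fell and 3 rose, beside 28.8% lower and 30.8% higher of all 15653 genes tested. The median log2 fold change of the members was -0.92 with BF BSHlow and -0.58 with BF BSHhigh, and that of all genes tested was 0.05 and 0.04. The members that rose were in both strains Ndufa4l2, Cox6b2 and Ndufa4. Most changes were moderate, since 32 members with BF BSHlow and 6 with BF BSHhigh fell by more than 1 on the log2 scale. Of all genes tested, 2672 of 15179 and 2349 of 15653 fell by as much. Without replicate 4 of the BF BSHlow non-tumor tissues, 74 members fell with BF BSHlow and the median was -0.76. When libraries were scaled by total counts alone, the median of all genes moved from 0.05 to 0.38 with BF BSHlow and from 0.04 to 0.35 with BF BSHhigh, and the members' median relative to it was -0.96 and -0.63, against -0.96 and -0.62 with TMM. Under that scaling the share of higher among all called genes went from 51.5% to 69.1% with BF BSHlow and from 51.7% to 70.0% with BF BSHhigh. Then 61 and 42 of 81 members fell, beside 3165 of 15179 and 3045 of 15653 genes tested.

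**Figure D2:**
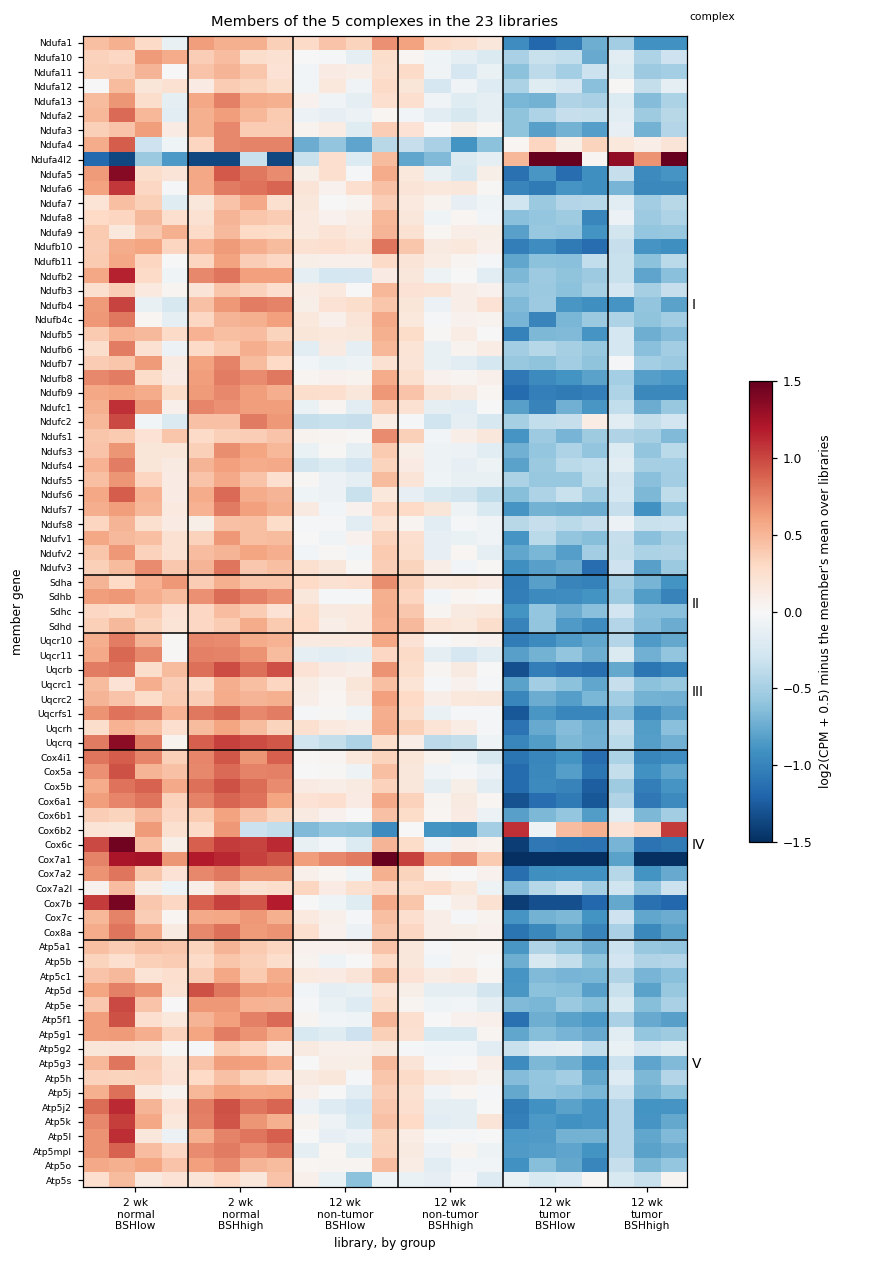
Level of members with a mean of at least 1 CPM in the 23 libraries, as log2(CPM + 0.5) minus the member's mean over libraries (colour, from -1.5 to 1.5, values beyond drawn at the ends), with members ordered by complex and libraries by group. The tumor columns are blue for nearly all rows, with Ndufa4, Ndufa4l2 and Cox6b2 as the red rows, and the fourth BF BSHlow non-tumor column is redder than the other non-tumor columns.

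**Figure D3:**
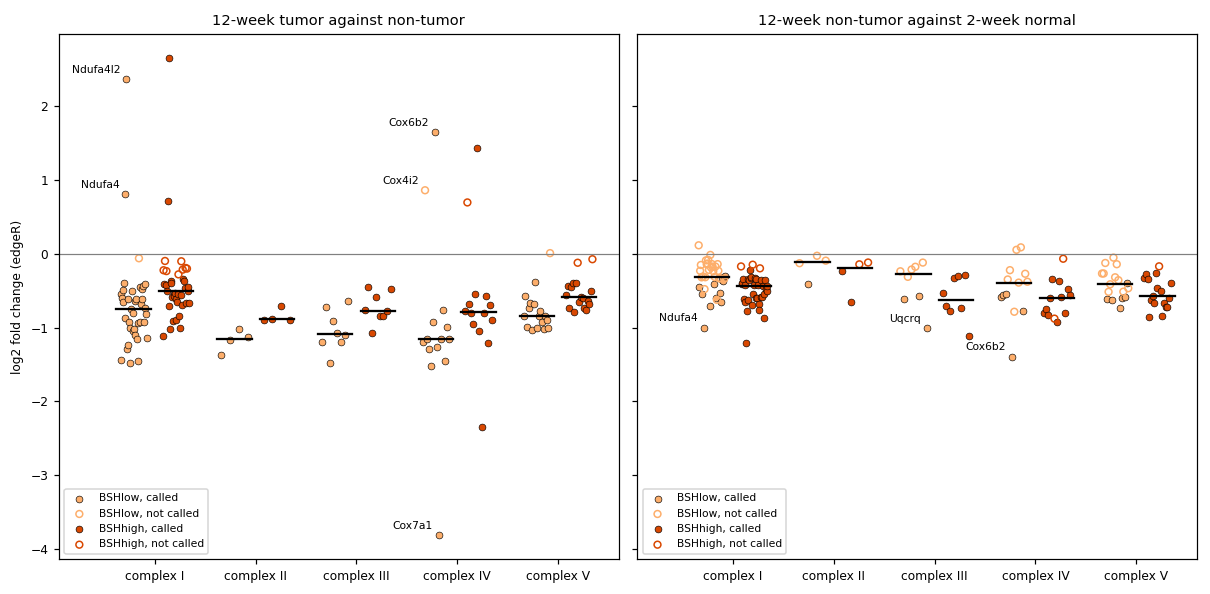
Log2 fold change of each tested member (edgeR) in 12-week tumors against non-tumor tissues and in 12-week non-tumor tissues against 2-week normal colon, by complex and strain. Filled points were called at an adjusted p under 0.05, open points were not, and the bars are medians, which lie below 0 for every complex in both panels.

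In complex I, the NADH dehydrogenase, 35 of 38 tested members fell in BF BSHlow tumors (median log2 fold change -0.75) and 28 fell in BF BSHhigh tumors (median -0.50). Ndufs1, an iron-sulfur core subunit of the arm that takes up electrons, was at 155, 154, 151 and 246 CPM in BF BSHlow non-tumor tissues and at 80.9, 102, 92.1 and 103 CPM in the tumors (log2 fold change -0.93, standard error 0.18, adjusted p = 0.00201 from edgeR). In BF BSHhigh mice it was at 192, 146, 160.1 and 169 CPM in non-tumor tissues and 109, 106 and 94.7 CPM in tumors a, b and c (log2 fold change -0.70, standard error 0.11, adjusted p = 0.00088 from edgeR). Every tumor library lay below every non-tumor library of its strain. Ndufv1, which binds NADH, fell by 0.74 and 0.50 on the log2 scale with BF BSHlow and BF BSHhigh (adjusted p = 0.00102 and 0.00663 from edgeR).

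The accessory subunits of the membrane arm held the largest falls of complex I. Ndufb10 was at 109, 111, 107 and 163 CPM in BF BSHlow non-tumor tissues and at 45.0, 48.3, 44.2 and 41.8 CPM in tumors (log2 fold change -1.47, standard error 0.16, adjusted p = 5.3e-05 from edgeR), and at 124, 102, 104 and 97.5 against 72.8, 50.2 and 49.0 CPM with BF BSHhigh (log2 fold change -0.90, standard error 0.16, adjusted p = 0.00159 from edgeR). No tumor of either strain reached the level of a non-tumor library. Ndufa1, encoded on the X chromosome, fell by 1.43 and 1.12 and Ndufb8 by 1.15 and 0.85 on the log2 scale in the respective tumors. Ndufc2 passed the test in neither strain (-0.06 and -0.10). With BF BSHhigh, Ndufa2, Ndufa10, Ndufa12, Ndufb7, Ndufs6 and Ndufs8 did not pass either, with log2 fold changes between -0.28 and -0.10.

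All 4 subunits of complex II, succinate dehydrogenase, fell in the tumors of both strains, with medians of -1.15 with BF BSHlow and -0.89 with BF BSHhigh. Sdha, the flavoprotein that oxidizes succinate, was at 447, 426, 434 and 590.4 CPM in BF BSHlow non-tumor tissues and at 175, 206, 183 and 179 CPM in tumors (log2 fold change -1.38, standard error 0.13, adjusted p = 3.37e-05 from edgeR). With BF BSHhigh it was at 465, 401, 405 and 394 against 255, 224 and 195 CPM (log2 fold change -0.90, standard error 0.12, adjusted p = 0.000406 from edgeR). The lowest non-tumor library of either strain was more than 1.5 times the highest tumor. Sdhb, the iron-sulfur subunit, was at 156, 136, 136 and 199.8 CPM against 67.1, 71.1, 72.2 and 74.0 CPM with BF BSHlow (log2 fold change -1.17, standard error 0.14, adjusted p = 0.000115 from edgeR). It was at 173, 134, 142 and 138 CPM against 94.5, 77.4 and 68.6 CPM with BF BSHhigh (log2 fold change -0.88, standard error 0.14, adjusted p = 0.000882 from edgeR). The membrane anchors Sdhc and Sdhd fell as well, by 1.02 and 1.13 on the log2 scale with BF BSHlow and by 0.71 and 0.90 with BF BSHhigh.

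All 8 members of complex III, the cytochrome bc1 complex, fell in both strains (medians -1.09 and -0.77). Uqcrb, which lies at the quinone site, was at 204, 192, 189 and 280.4 CPM in BF BSHlow non-tumor tissues and 70.3, 85.3, 81.5 and 80.1 CPM in tumors (log2 fold change -1.47, standard error 0.15, adjusted p = 4.32e-05 from edgeR). In BF BSHhigh mice it was at 212, 182, 193 and 176 against 103, 82.9 and 86.8 CPM (log2 fold change -1.08, standard error 0.11, adjusted p = 0.000122 from edgeR). It had the largest fall of the complex in both strains, and no tumor reached the level of a non-tumor library. The Rieske iron-sulfur protein Uqcrfs1 fell by 1.19 and 0.85, the core proteins Uqcrc1 by 0.91 and 0.58 and Uqcrc2 by 1.07 and 0.84, and the hinge protein Uqcrh by 1.10 and 0.77 on the log2 scale (BF BSHlow and BF BSHhigh).

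In complex IV, cytochrome c oxidase, 12 of 14 tested members fell in the tumors of each strain (medians -1.16 and -0.79). Cox6a1, the isoform of subunit VIa outside heart and skeletal muscle, was at 279, 287, 262 and 357 CPM in BF BSHlow non-tumor tissues and 96.9, 108, 115 and 98.97 CPM in tumors (log2 fold change -1.53, standard error 0.12, adjusted p = 1.24e-05 from edgeR). In the BF BSHhigh groups it was at 306, 248, 264 and 245 against 176, 114 and 123 CPM (log2 fold change -0.95, standard error 0.16, adjusted p = 0.0015 from edgeR), and tumor a was the highest of the 7 tumors. Cox4i1, the common isoform of subunit IV, was at 594, 599.6, 652 and 736 CPM against 274, 297, 315 and 264 CPM with BF BSHlow (log2 fold change -1.19, standard error 0.11, adjusted p = 2.53e-05 from edgeR). Cox7b was at 332, 252, 266 and 292 CPM against 147, 115 and 109.8 CPM with BF BSHhigh (log2 fold change -1.21, standard error 0.14, adjusted p = 0.000225 from edgeR). Cox5a fell by 1.15 and 0.68, Cox6c by 1.26 and 1.04 and Cox7a2 by 1.16 and 0.80 on the log2 scale (BF BSHlow and BF BSHhigh).

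The largest fall of all members was that of Cox7a1, the isoform of subunit VIIa known from heart, skeletal muscle and brown fat. It was at 21.2, 22.74, 23.7 and 47.8 CPM in BF BSHlow non-tumor tissues and at 2.06, 2.62, 2.53 and 1.17 CPM in tumors (log2 fold change -3.82, standard error 0.37, adjusted p = 3.1e-05 from edgeR). In BF BSHhigh mice it was at 28.1, 21.3, 22.61 and 17.96 against 7.60, 2.77 and 3.005 CPM (log2 fold change -2.35, standard error 0.37, adjusted p = 0.00095 from edgeR). Tumor a of BF BSHhigh was the highest of the 7 tumors, and the levels at 2 weeks (23.1, 32.4, 33.0 and 21.8 CPM with BF BSHlow) overlapped with those of non-tumor tissues. Markers of smooth muscle, skeletal muscle and brown fat were set beside it. The 8 smooth muscle markers summed to 1603 to 8927 and 3469.8 to 4589 CPM in BF BSHlow and BF BSHhigh non-tumor tissues and to 154 to 306 and 225 to 399 CPM in tumors, and 8 of 8 fell with BF BSHlow. At 2 weeks the same sum was 60.5 to 193 and 16.3 to 229 CPM, while Cox7a1 did not pass the test between the time points with BF BSHlow (log2 fold change 0.06, standard error 0.27, adjusted p = 0.884 from edgeR) and fell with BF BSHhigh (log2 fold change -0.37, standard error 0.13, adjusted p = 0.0429 from edgeR), where the groups overlapped. The 6 skeletal muscle markers summed to at most 32.4 CPM in any library. The genes of the brown fat list summed to 16.5 to 39.9 and 12.3 to 107 CPM in non-tumor tissues, to 7.63 to 15.9 and 9.49 to 16.6 CPM in tumors and to 6.84 to 141 and 5.05 to 34.6 CPM at 2 weeks. Ucp1, which defines brown fat, had at most 1 count in a group and Myh4, which defines fast skeletal muscle, had 0 in all libraries. Other markers of these lists fell with Cox7a1 in tumors. The skeletal muscle marker Ckm was lower (log2 fold change -6.9489 with BF BSHlow and -5.3963 with BF BSHhigh, edgeR). Of the 3 skeletal muscle markers tested, 1 rose with BF BSHlow and 0 with BF BSHhigh. Fabp4, the 1 gene of the brown fat list tested, was lower as well (-1.6589 and -2.1331). With Ucp1 at no more than 1 count in a group, the sums of this list do not show that brown fat was present. The part of smooth muscle, skeletal muscle and brown fat in the fall of Cox7a1 was not tested.

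In complex V, the ATP synthase, 16 of 17 tested members fell in BF BSHlow tumors and 15 in BF BSHhigh tumors (medians -0.85 and -0.58). Atp5a1, the alpha subunit of the catalytic head, was at 1315, 1308, 1321 and 1688 CPM in BF BSHlow non-tumor tissues and at 684, 917, 839 and 749 CPM in tumors (log2 fold change -0.85, standard error 0.14, adjusted p = 0.000654 from edgeR). With BF BSHhigh it was at 1412, 1231, 1290.3 and 1293 against 1001, 847 and 830.3 CPM (log2 fold change -0.56, standard error 0.11, adjusted p = 0.00331 from edgeR). All tumors lay below all non-tumor libraries. The beta subunit Atp5b fell by less, 0.58 and 0.44 on the log2 scale, and the gamma subunit Atp5c1 by 0.99 and 0.73 (BF BSHlow and BF BSHhigh). Atp5s, annotated as a coupling factor, passed the test in neither strain (0.01 and -0.07).

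The genes Atp5g1, Atp5g2 and Atp5g3 encode the same mature c subunit of the rotor ring with different import sequences. Atp5g3 was at 450.1, 480.3, 475 and 628 CPM in BF BSHlow non-tumor tissues and 233, 281, 270.3 and 243 CPM in tumors (log2 fold change -1.01, standard error 0.13, adjusted p = 0.00019 from edgeR). Atp5g1 was at 152, 158, 144 and 229 against 104, 115, 110.1 and 106 CPM (log2 fold change -0.68, standard error 0.16, adjusted p = 0.00444 from edgeR). Atp5g2 was at 187, 179.6, 180.0 and 188 against 135, 153, 153 and 132 CPM (log2 fold change -0.38, standard error 0.08, adjusted p = 0.0027 from edgeR), the smallest fall among the members of complex V that were called with BF BSHlow. With BF BSHhigh, Atp5g3 fell by 0.65 and Atp5g1 by 0.39, while Atp5g2 did not pass the test (log2 fold change -0.12, standard error 0.08, adjusted p = 0.229 from edgeR).

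Of the 3 members that rose, Ndufa4l2 and Cox6b2 are known as alternative forms of a subunit. Ndufa4, named after complex I but described as a subunit of complex IV, was at 94.2, 105, 91.1 and 118 CPM in BF BSHlow non-tumor tissues and at 160.5, 197, 167 and 199 CPM in tumors (log2 fold change 0.81, standard error 0.12, adjusted p = 0.000417 from edgeR). In BF BSHhigh mice it was at 124, 113, 84.6 and 103 against 176, 169.6 and 181 CPM (log2 fold change 0.72, standard error 0.12, adjusted p = 0.00131 from edgeR). All tumors were above all non-tumor libraries. At 2 weeks it was at 232, 297, 127 and 151 CPM with BF BSHlow and 197, 261, 265 and 265 CPM with BF BSHhigh, so that 5 of the 8 libraries at 2 weeks were above all tumors.

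Ndufa4l2, a paralog of Ndufa4 known to be induced by hypoxia-inducible factor, was at 0.519, 1.03, 0.614 and 1.29 CPM in BF BSHlow non-tumor tissues and at 1.33, 6.82, 9.73 and 0.831 CPM in tumors (log2 fold change 2.38, standard error 0.78, adjusted p = 0.0249 from edgeR). In the BF BSHhigh groups it was at 0.250, 0.311, 0.606 and 0.674 against 2.74, 1.56 and 4.48 CPM (log2 fold change 2.65, standard error 0.49, adjusted p = 0.002 from edgeR). The BF BSHlow groups overlapped, with 1 tumor within and 1 just above the range of non-tumor tissues, whereas the BF BSHhigh groups did not. The BF BSHlow call was lost with limma-voom, with a replicate block and without any 1 of 4 libraries (adjusted p between 0.058 and 0.142). Pericyte markers (Rgs5, Pdgfrb, Kcnj8, Abcc9, Notch3 and Higd1b) summed to 103 to 187 and 108 to 219 CPM in non-tumor tissues and 202 to 232 and 174 to 214 CPM in tumors. Of the 5 tested, Pdgfrb (1.96 and 2.05) and Notch3 (2.01 and 1.74) rose in both strains and Abcc9 fell (-0.755 and -0.90), while 2 were not called. The 8 hypoxia genes, among them Vegfa, Slc2a1 and Ldha, summed to 1755 to 2701 and 1994 to 2123 CPM in non-tumor tissues and 960.4 to 2320.3 and 1309.6 to 1871 CPM in tumors (BF BSHlow and BF BSHhigh). Of the 8, 2 fell with BF BSHlow and 4 with BF BSHhigh, among them Ankrd37 (-1.43 and -1.35) and Pdk1 (-0.98 and -0.88). None rose in either strain, while 1 rose with BF BSHlow without replicate 4 of the non-tumor tissues. Among BF BSHlow tumors the summed hypoxia genes were highest in replicates 2 and 3, which also had the most Ndufa4l2. The ranking was not particular to hypoxia genes, since the summed epithelial and smooth muscle markers were highest in replicates 2 and 3 as well. The summed pericyte markers were highest in replicates 3 and 1. The part of these cells and genes in the result was not tested. Ndufa4l2 lies opposite to Shmt2 on the other strand.

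Cox6b2, the testis isoform of subunit VIb, was at 0.890, 0.974, 0.955 and 0.645 CPM in BF BSHlow non-tumor tissues and 4.22, 1.59, 2.53 and 2.69 CPM in tumors (log2 fold change 1.65, standard error 0.36, adjusted p = 0.00328 from edgeR). In BF BSHhigh mice it was at 1.69, 0.685, 0.667 and 1.05 against 2.07, 2.23 and 4.05 CPM (log2 fold change 1.44, standard error 0.41, adjusted p = 0.017 from edgeR). The groups did not overlap in either strain, but the levels were low, and without tumor c the BF BSHhigh difference no longer passed (log2 fold change 1.07, adjusted p = 0.077 from edgeR). Cox4i2, the isoform of subunit IV known for its induction at low oxygen, was at 0.667, 1.66, 0.409 and 0.194 CPM against 1.03, 1.13, 1.19 and 2.10 CPM with BF BSHlow and did not pass the test (log2 fold change 0.86, standard error 0.58, adjusted p = 0.223 from edgeR).

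**Figure D4:**
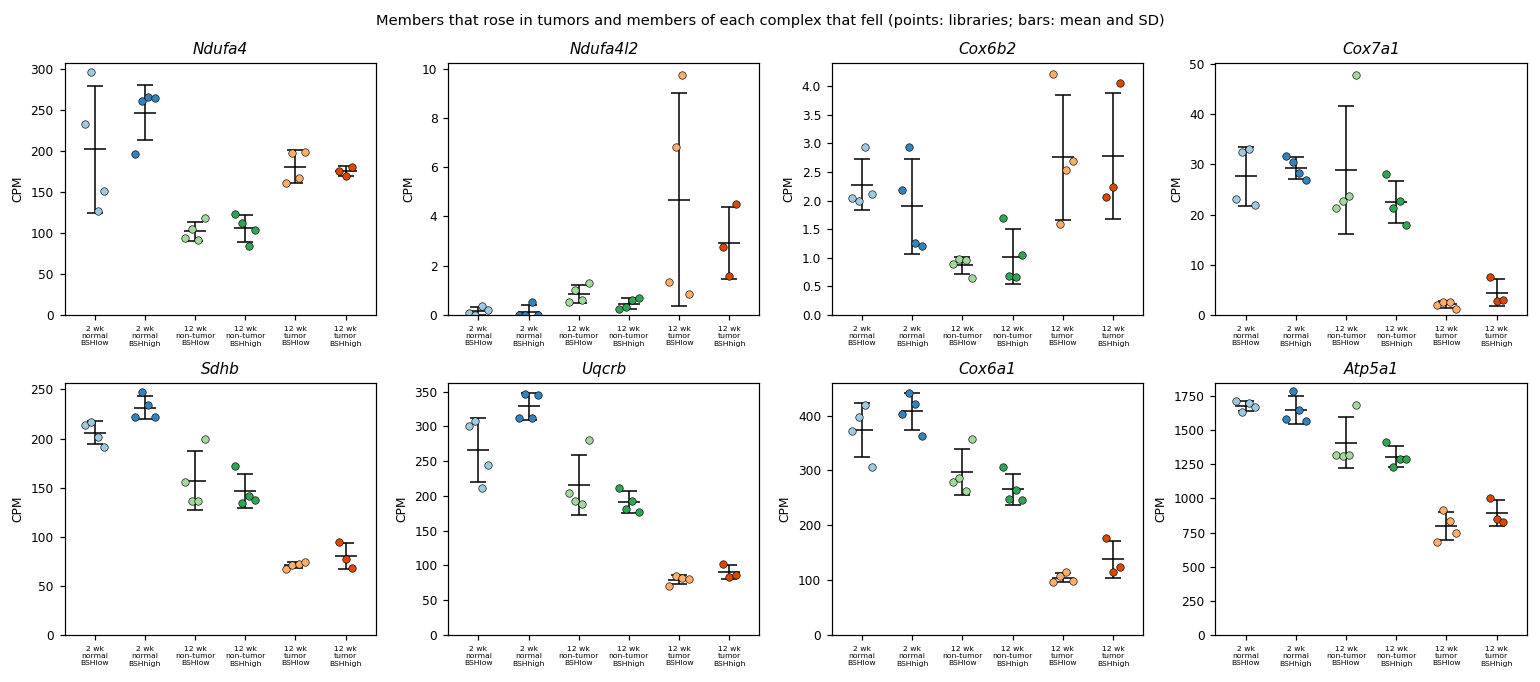
CPM (linear axes from 0) of the 3 members that rose in tumors (Ndufa4, Ndufa4l2 and Cox6b2), of Cox7a1, and of 1 member each of complexes II (Sdhb), III (Uqcrb), IV (Cox6a1) and V (Atp5a1), with a point for each library and bars for the mean and SD of each group. Ndufa4 in tumors lies above non-tumor tissues and below most libraries of 2 weeks, whereas the lower row descends from 2 weeks to non-tumor tissues to tumors.

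Ratios between paralogous subunits do not depend on how libraries were scaled. The level of a ratio depends on the merged exon lengths, which are the same in every library. Per 100 counts per kb of Cox7a2 there were 22.4 ± 5.02 of Cox7a1 in BF BSHlow and 18.5 ± 2.20 in BF BSHhigh non-tumor tissues, against 3.68 ± 1.15 and 6.10 ± 2.63 in tumors (SD, n = 4, 4, 4 and 3). Cox7a2l, a paralog known for its part in joining complexes III and IV, stood at 58.1 ± 5.71 and 54.8 ± 3.79 per 100 of Cox7a2 at 2 weeks, at 82.2 ± 12.97 and 78.9 ± 10.4 in non-tumor tissues and at 106 ± 6.11 and 93.0 ± 9.88 in tumors. The 2 ratios thus moved in opposite directions between non-tumor tissues and tumors. Atp5g1 stood at 47.2 ± 1.95 and 48.9 ± 4.21 per 100 of Atp5g2 at 2 weeks, 31.7 ± 6.69 and 36.7 ± 5.90 in non-tumor tissues and 26.0 ± 1.24 and 30.2 ± 3.30 in tumors. Atp5g1 per 100 of Atp5g3 was 14.8 ± 1.10 and 16.5 ± 1.40 in non-tumor tissues and 18.9 ± 0.894 and 19.8 ± 0.562 in tumors. Ndufa4l2 was a minor form in all groups, with 1.04 ± 0.324 and 0.583 ± 0.328 per 100 of Ndufa4 in non-tumor tissues and 3.32 ± 3.17 and 2.08 ± 0.987 in tumors. Cox6b2 was at 0.181 ± 0.0507 and 0.216 ± 0.0846 per 100 of Cox6b1 in non-tumor tissues and 1.06 ± 0.471 and 0.889 ± 0.405 in tumors, so that Cox6b1 remained the main form.

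**Figure D5:**
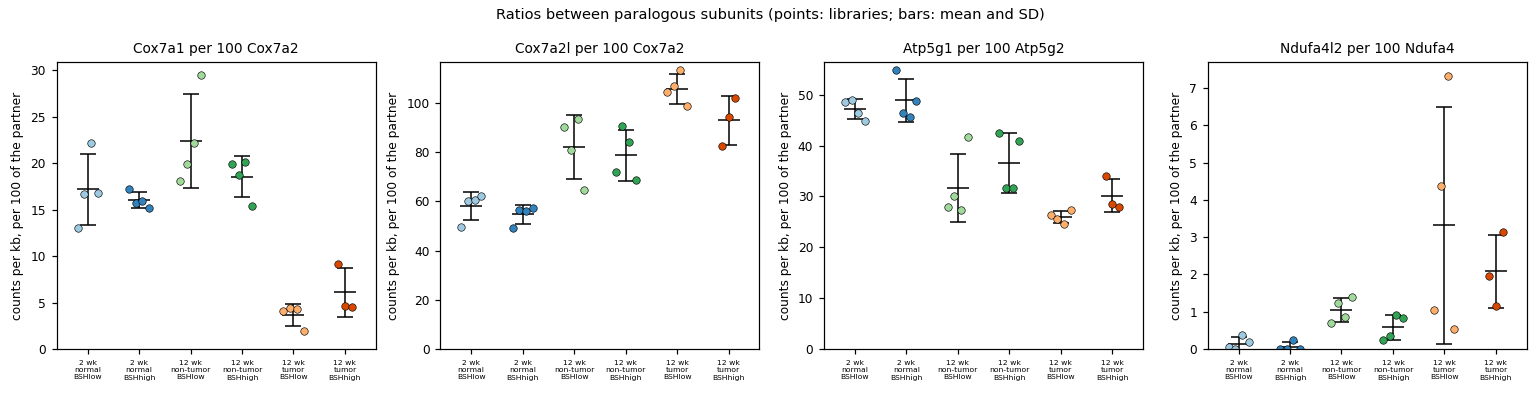
Counts per kb of a subunit per 100 of its paralog (linear axes from 0) in each library, with bars for the mean and SD of each group. Cox7a1 is lower relative to Cox7a2 in tumors (3.68 and 6.10 on average) and Cox7a2l is higher relative to Cox7a2, and the spread of Ndufa4l2 over Ndufa4 among BF BSHlow tumors is wide.

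Genes that build and feed the complexes were set beside the members from lists of their own. Of the 13 subunits encoded in mitochondrial DNA, 12 fell in tumors of each strain, with medians of -1.11 and -1.09 on the log2 scale (BF BSHlow and BF BSHhigh), the exception being mt-Co2 of complex IV (-0.57 and -0.58). Assembly factors moved less, as 21 of 46 tested fell and 3 rose with BF BSHlow and 19 fell and 3 rose with BF BSHhigh (medians -0.36 and -0.19). Sco1, a copper chaperone of complex IV, fell by 1.01 and 0.99, and Lyrm7, which helps to insert the Rieske protein of complex III, by 0.997 and 1.004. Sdhaf1, which helps to mature Sdhb, rose by 0.72 and 1.04. Of 16 genes of pyruvate dehydrogenase and the citric acid cycle, 12 and 13 fell and none rose in the 2 strains (medians -0.81 and -0.56), led by the succinyl-CoA ligase subunits Suclg2 (-1.80 and -1.39) and Suclg1 (-1.48 and -1.17). Among 11 carriers, 10 and 9 fell, such as the adenine nucleotide translocator Slc25a5 (-1.29 and -1.13), and 1 rose, its paralog Slc25a4 (1.37 and 1.19).

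The regulators of mitochondrial biogenesis did not move as one. Of 12 tested, 6 fell and 2 rose with BF BSHlow, and 6 fell and 3 rose with BF BSHhigh. The coactivators Ppargc1a and Ppargc1b fell by 2.23 and 3.04 on the log2 scale with BF BSHlow and by 1.78 and 2.33 with BF BSHhigh. The estrogen-related receptors with which they act fell too, Esrrg, which had 7 counts in all BF BSHlow tumors together, by 7.18 and 4.17 and Esrra by 1.54 and 1.19. Pprc1, the third coactivator of the family, rose by 1.33 and 0.98, and the mitochondrial RNA polymerase Polrmt by 0.46 and 0.31. Gabpa and Yy1 passed the test in neither strain, and Nrf1 passed with BF BSHhigh only (0.24 and 0.29, adjusted p = 0.0912 and 0.0228 from edgeR), without a difference between the strains that passed the interaction test (adjusted p = 0.982 from edgeR).

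Since most members moved together, their promoters were searched for the short motifs of the factors above. RefSeq windows of 300 bases, from 250 before to 50 after the transcription start in GRCm38.p6, were at hand for 68 of the 88 symbols. The letters searched on both strands were GCATGCGC for NRF1, CCGGAAG for GABP, AAGGTCA for the estrogen-related receptors and AAGATGG for YY1. The NRF1 letters stood in 14.7% of the member windows, against 4.82% of the windows of 12003 genes tested and 2.80% of all 27025 windows. For GABP the shares were 22.1%, 16.4% and 9.12%, for the estrogen-related receptors 11.8%, 3.33% and 4.66%, and for YY1 14.7%, 6.76% and 6.48%. Of the 8 tested members with the letters of the estrogen-related receptors, all 8 fell in both strains (medians -0.93 and -0.65), and the members without them had medians of -0.91 and -0.56, so that the groups differed little. A match is a description of letters only.

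The windows of 4 members are shown in 5′ to 3′ direction of the gene with matches in capitals. Cox6a1 had the largest fall with BF BSHlow of the members with a match (chr5:115348909-115349208, minus strand, with the NRF1 letters on both strands in overlap and 1 GABP match). Atp5k (chr5:108434350-108434649, minus strand) and Atp5l (chr9:44920693-44920992, minus strand), both subunits of the membrane part of ATP synthase, are the members that hold letters of 3 of the 4 factors. Ndufa4 (chr6:11907401-11907700, minus strand) is shown as a member that rose and holds none of these letters.
Cox6a1: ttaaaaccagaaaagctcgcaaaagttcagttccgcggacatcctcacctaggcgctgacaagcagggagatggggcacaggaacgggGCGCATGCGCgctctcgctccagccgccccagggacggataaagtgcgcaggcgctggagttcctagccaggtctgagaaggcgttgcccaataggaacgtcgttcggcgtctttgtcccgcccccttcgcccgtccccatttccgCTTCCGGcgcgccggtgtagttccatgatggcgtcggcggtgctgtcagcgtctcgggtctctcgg
Atp5k: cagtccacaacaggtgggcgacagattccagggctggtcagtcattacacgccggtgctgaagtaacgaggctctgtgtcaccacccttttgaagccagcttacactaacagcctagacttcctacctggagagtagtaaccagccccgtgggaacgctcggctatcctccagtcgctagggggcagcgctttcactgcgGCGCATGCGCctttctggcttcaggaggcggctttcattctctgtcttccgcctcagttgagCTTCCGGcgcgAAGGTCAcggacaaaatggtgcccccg
Atp5l: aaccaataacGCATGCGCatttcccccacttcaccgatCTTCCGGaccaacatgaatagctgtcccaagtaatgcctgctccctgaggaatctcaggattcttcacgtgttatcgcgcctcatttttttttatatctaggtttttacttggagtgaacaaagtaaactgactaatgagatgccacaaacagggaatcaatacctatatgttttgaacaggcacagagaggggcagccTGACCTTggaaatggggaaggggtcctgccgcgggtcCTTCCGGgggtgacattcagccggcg
Ndufa4: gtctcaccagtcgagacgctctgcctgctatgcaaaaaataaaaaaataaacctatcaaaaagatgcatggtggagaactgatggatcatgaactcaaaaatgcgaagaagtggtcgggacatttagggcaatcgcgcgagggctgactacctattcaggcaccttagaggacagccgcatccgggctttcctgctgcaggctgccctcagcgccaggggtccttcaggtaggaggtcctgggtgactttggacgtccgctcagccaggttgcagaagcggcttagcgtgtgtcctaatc
In tumors Atp5k fell by 1.02 and 0.76 and Atp5l by 0.85 and 0.64 on the log2 scale with BF BSHlow and BF BSHhigh, beside medians of -0.85 and -0.58 for complex V.

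Markers of cell types moved with the tumor difference. The 8 colonocyte markers (Car1, Car4, Slc26a3, Aqp8, Krt20, Guca2a, Ceacam20 and Emp1) summed to 2077 to 4870.0 and 2407 to 3229.5 CPM in BF BSHlow and BF BSHhigh non-tumor tissues and 135 to 308 and 234 to 975 CPM in tumors, where 7 and 5 of 8 fell. The 6 epithelial markers summed to 9269 to 12553 and 9858 to 10488 CPM against 4512 to 8104 and 5759.7 to 8025 CPM, and 5 and 4 of 6 fell, while Krt18 rose in both strains (1.503 and 1.14 on the log2 scale). The 6 immune markers summed to 262 to 1947 and 821 to 1926 CPM against 221 to 705 and 645 to 784 CPM, but they did not move as one. With BF BSHlow 3 fell and 1 rose, and with BF BSHhigh 2 fell and 2 rose. Jchain (-8.52 and -2.98) and Cd79a (-6.28 and -4.25) fell in both strains, while Cd68 rose in both (0.93 and 1.20) and Cd3e with BF BSHhigh (1.19). None of these lists had a marker at 0 in a whole group. In bulk tissue, fewer cells of a type and less RNA per cell cannot be told apart, and the part of these cell types in the changes of the members was not tested.

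Non-tumor tissues at 12 weeks were compared with normal colon at 2 weeks, which sets the tissue of the later time against that of the earlier one. The non-tumor libraries are those used above, so this comparison is not independent of the one with tumors. With BF BSHlow, 27 of 79 tested members were lower at 12 weeks and 0 higher, beside 20.7% lower and 22.4% higher of all 14555 genes tested. With BF BSHhigh, 71 of 79 were lower and 0 higher, beside 23.9% and 27.1% of all 14638 genes tested. Medians of the members were -0.32 and -0.51, beside -0.02 and 0.02 for all genes tested. At an unadjusted p under 0.05 no member was higher in either strain, beside 25.9% and 30.4% of all genes tested. The count with BF BSHlow rested on single libraries: it was 48 without replicate 4 and 11 without replicate 1 of the non-tumor tissues. The counts over all genes in these fits are not given here, so these 2 counts cannot be set against a share of all genes. With total count scaling 9 and 36 of 79 members were lower, beside 1635 of 14555 and 1786 of 14638 genes tested. The count with BF BSHlow was thus near the share of all genes. The median of all genes was then 0.22 and 0.30, and the members' median relative to it was -0.29 and -0.53, against -0.30 and -0.53 with TMM. Under that scaling the share of higher among all called genes went from 52.0% to 74.2% with BF BSHlow and from 53.1% to 77.7% with BF BSHhigh.

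By complex, the members lower with BF BSHlow and with BF BSHhigh were 12 and 34 of 37 in complex I, 1 and 2 of 4 in complex II, 3 and 8 of 8 in complex III, 5 and 11 of 13 in complex IV and 6 and 16 of 17 in complex V. Without replicate 4 of the non-tumor tissues the counts with BF BSHlow were 20, 1, 6, 10 (of 14 tested) and 11. Ndufa4 was at 232, 297, 127 and 151 CPM at 2 weeks and 94.2, 105, 91.1 and 118 CPM at 12 weeks with BF BSHlow (log2 fold change -0.999, standard error 0.25, adjusted p = 0.00931 from edgeR). With BF BSHhigh it went from 197, 261, 265 and 265 CPM to 124, 113, 84.6 and 103 CPM (log2 fold change -1.21, standard error 0.13, adjusted p = 0.000119 from edgeR). It thus fell between the time points in both strains and was the member with the largest fall with BF BSHhigh. Uqcrq, a small subunit of complex III, was at 206, 303, 203 and 123 against 96.6, 92.8, 86.5 and 143 CPM with BF BSHlow (log2 fold change -1.01, standard error 0.26, adjusted p = 0.0119 from edgeR). It was at 222, 244, 236 and 228 against 128, 90.7, 93.1 and 114 CPM with BF BSHhigh (log2 fold change -1.12, standard error 0.11, adjusted p = 6.94e-05 from edgeR). The BF BSHlow groups of Uqcrq overlapped, with replicate 4 of each time point near the other group, and the BF BSHhigh groups did not.

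Cox6b2 fell with BF BSHlow, from 2.05, 2.00, 2.94 and 2.11 to 0.890, 0.974, 0.955 and 0.645 CPM (log2 fold change -1.39, standard error 0.28, adjusted p = 0.00352 from edgeR), and did not pass with BF BSHhigh (log2 fold change -0.88, standard error 0.42, adjusted p = 0.109 from edgeR). Cox7b fell by 0.77 and 0.81 and Cox4i1 by 0.59 and 0.80 on the log2 scale with BF BSHlow and BF BSHhigh. Cox6c (-0.92) and Ndufs6 (-0.87) were among the largest falls with BF BSHhigh. Sdhc and Sdhd of complex II did not pass in either strain (-0.03 and -0.09 with BF BSHlow, -0.14 and -0.12 with BF BSHhigh), and Cox7a2l was at 0.09 and -0.07 without passing. With total count scaling, Sdha, Atp5b and Atp5g2 were no longer lower with BF BSHhigh (log2 fold changes 0.05, 0.00 and 0.01).

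Of the mitochondrially encoded subunits, 12 and 11 of 13 were lower at 12 weeks with BF BSHlow and BF BSHhigh, while 13 and 27 of the assembly factors were. Of the citric acid cycle genes 3 and 10 were lower, 1 being higher with BF BSHlow, and of the carriers 5 and 7 were lower and 1 higher in each strain. Without replicate 4 of the BF BSHlow non-tumor tissues, 13 mitochondrially encoded subunits, 16 assembly factors, 10 citric acid cycle genes and 6 carriers were lower with BF BSHlow. Of the regulators of biogenesis, Esrra and Tfam were lower in both strains, and Esrrg was higher by 2.40 and 2.25 on the log2 scale, joined by Pprc1 with BF BSHhigh (0.62). The colonocyte markers summed to 17102 to 30068 and 16371 to 19771 CPM at 2 weeks, above all libraries of 12 weeks. Of these 8 markers 4 were lower at 12 weeks in each strain and the others did not pass the test, and the smooth muscle markers were higher at 12 weeks in 8 of 8 genes. The part of either in this comparison was not tested, and time, age and the tissue sampled cannot be told apart.

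BF BSHhigh was compared with BF BSHlow within each tissue, which is the contrast the colonization was made for. In tumors 0 members were higher and 0 lower of 81 tested with edgeR, beside 0.47% higher and 0.0392% lower of 15325 genes. The median of the members was 0.18, beside -0.03 for all genes tested, and 74 of 81 members were above 0. At an unadjusted p under 0.05, 9 were higher (Atp5g1, Sdha, Atp5o, Ndufv2, Ndufv3, Cox7b, Ndufb10, Cox6a1 and Cox7a1) and 1 lower (Cox4i2), beside 8.5% and 4.2% of all genes tested. Sdha was at 175, 206, 183 and 179 CPM in BF BSHlow and 255, 224 and 195 CPM in BF BSHhigh tumors (log2 fold change 0.26, standard error 0.11, adjusted p = 0.38 from edgeR). Cox7a1 was at 2.06, 2.62, 2.53 and 1.17 against 7.60, 2.77 and 3.005 CPM (log2 fold change 1.08, standard error 0.44, adjusted p = 0.359 from edgeR). Tumor a was the highest of the BF BSHhigh tumors for both, and without it the median of the members was 0.07. The summed colonocyte markers were 975 CPM in tumor a and 314 and 234 CPM in b and c, and 2 of the 8, Aqp8 and Slc26a3, were called higher in BF BSHhigh tumors (6.40 and 6.25 on the log2 scale). The part of these markers' cell types in the levels of the members was not tested.

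In non-tumor tissues no member was higher or lower of 79 tested (edgeR, median -0.10 beside -0.01 for all genes, 0 higher and 1 lower at an unadjusted p under 0.05), beside 0% in either direction of 14933 genes at an adjusted p under 0.05 and 5.3% higher and 3.92% lower at an unadjusted one. Without replicate 4 of the BF BSHlow libraries the median of the members was 0.00. At 2 weeks none of 79 passed (median 0.09 beside -0.002 for all genes, 1 higher and 0 lower at an unadjusted p under 0.05), beside 0.00727% higher and 0% lower of 13752 genes at an adjusted p under 0.05 and 3.83% and 2.97% at an unadjusted one. DESeq2 and limma-voom also called no member in the comparisons of the strains in tumors, in non-tumor tissues and at 2 weeks. Of all genes, DESeq2 called 606 higher and 135 lower in tumors, 152 and 42 in non-tumor tissues and 42 and 10 at 2 weeks. The counts with limma-voom were 40 and 3, 0 and 0, and 1 and 0, so its lack of called members says little.

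The test of whether the difference between tumor and non-tumor tissues differs between strains called 0 members higher and 0 lower of 81 (edgeR), beside 0.978% higher and 0.0122% lower of 16454 genes. The median of the members was 0.26, beside 0.03 for all genes tested, and 75 of 81 members were above 0. At an unadjusted p under 0.05, 17 were higher and 0 lower, beside 7.36% and 2.24% of all genes tested. The log2 difference of Sdha was 0.47 (standard error 0.18, adjusted p = 0.354 from edgeR) and that of Cox7a1 1.46 (standard error 0.52, adjusted p = 0.319 from edgeR). No single member was thus shown to fall less in BF BSHhigh than in BF BSHlow tumors. DESeq2 called no member either, beside 401 higher and 22 lower of 16454 genes. With limma-voom 0 of the 16454 genes were called, so that its lack of called members adds nothing. Without replicate 4 of the BF BSHlow non-tumor tissues the median of the members was 0.15.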

How the data were processed

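RNA of mouse colon was sequenced in 23 libraries. After trimming with Cutadapt and alignment with STAR (mm10), the authors estimated gene abundance with RSEM, and the deposited values are its expected counts without normalization, 4.24% of them not whole. Library totals ranged from 12401388 to 17903008. The identifiers match GENCODE M21 (GRCm38), and 1 gene with a text cell and a row without a name were left out. The columns of the 3 BF BSHhigh tumors repeat other names and were assigned as a group through a supplementary table, in which 1996 of 1997 rows at hand matched.

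Rounded counts were fitted with edgeR 4.0.16 in R 4.3.3 and tested by quasi-likelihood (TMM scaling, filterByExpr, Benjamini-Hochberg over all genes tested, adjusted p under 0.05), with the libraries compared in each fit and the 15 libraries of 12 weeks for the interaction. The scripts were tested on simulated data. CPM use TMM factors of all libraries. Promoter windows came from RefSeq. Alternatives were DESeq2 1.42.0, limma-voom (limma 3.58.1), RLE and total count scaling, other filters, all libraries in one fit, a replicate block, a fold limit and leaving out each library. The chi-square per degree of freedom between replicates was 16.6 to 126 in 33 pairs, so none was counted as a duplicate. Members, lists and alternatives were chosen with earlier results of these data known. Named were a fixed list of core subunits and isoforms, and in each comparison up to 4 members called in each direction (2 in other lists) with the largest fold change and a mean of at least 1 CPM. The values of 1 member are not reported here.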

Additional observations from a re-analysis of the deposited data

Results flagged for a closer look

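Libraries far from the others of their group were looked for in 213 groups of 4 libraries, and 33 met Dixon's criterion at the 95% level, which chance gives in about 1 of 20 groups. These groups share libraries, so the findings are not independent of each other.

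In 17 of the 33, replicate 4 of the BF BSHlow non-tumor tissues was the highest library. In complex I it had 246 CPM of Ndufs1, 225 CPM of Ndufb8 and 163 CPM of Ndufb10. In complexes II and III it had 590.4 CPM of Sdha, 523 CPM of Uqcrc2, 282 CPM of Uqcrfs1 and 280.4 CPM of Uqcrb. In complex IV it had 332 CPM of Cox5a, 47.8 CPM of Cox7a1 and 0.387 CPM of Cox6a2. In complex V it had 1688 CPM of Atp5a1, 229 CPM of Atp5g1 and 628 CPM of Atp5g3. As a share of counts the members made up 1.90% in it, those of complex I 0.418%, of complex III 0.233% and of complex V 0.732%. The same library had the lowest summed immune markers (262 CPM) and the lowest summed smooth muscle markers (1603 CPM) of its group and the highest summed colonocyte markers (4870.0 CPM), and their part in its levels was not tested.

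Among the other non-tumor tissues, BF BSHhigh replicate 1 was the highest for Sdha (465 CPM), Cox7a2 (249 CPM) and the share of the mitochondrially encoded subunits (6.71%), and replicate 3 for Cox6a2 (0.0606 CPM, 1 count). Among BF BSHlow tumors, replicate 1 was the lowest for Cox6c (99.1 CPM) and Cox7a2 (90.0 CPM), replicate 4 the highest for Cox4i2 (2.10 CPM) and replicate 3 the highest for the share of complex IV (0.195%).

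At 2 weeks with BF BSHlow, replicate 3 was the lowest for Ndufs1 (174 CPM) and the highest for Cox6b2 (2.94 CPM), and replicate 4 the lowest for Atp5g2 (173 CPM) and the highest for Cox6a2 (0.211 CPM). At 2 weeks with BF BSHhigh, replicate 1 was the lowest for Ndufa4 (197 CPM) and the highest for Cox8b (0.0908 CPM), replicate 2 the highest for Ndufs6 (128 CPM) and replicate 3 the highest for Ndufa4l2 (0.520 CPM). Cox6a2 and Cox8b rest on a few counts.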

How the results depend on the processing

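Of the 35 genes followed one by one, AA467197 included, none had a called value that turned direction in tumors of either strain in the alternatives run, and the counts moved most with the scaling and with a limit on fold change. With total count scaling, 42 members were lower in BF BSHhigh tumors, with medians of -0.57 (BF BSHlow) and -0.28 (BF BSHhigh), and between 12 and 2 weeks 9 and 36 were lower and 2 higher with BF BSHlow, with medians of -0.071 and -0.23. Between the time points with BF BSHlow, 1635 of all 14555 genes tested were lower and 4704 higher under this scaling. Under it Sdha (0.0461), Atp5b (0.0004) and Atp5g2 (0.0085) turned direction between the time points with BF BSHhigh. The median of all genes in that comparison was 0.02 with TMM and 0.30 with total count scaling. With an absolute log2 fold change over 1 as well, 32 and 6 members were lower in tumors and 2 and 2 between time points. Of all genes tested, 2672 of 15179 and 2349 of 15653 were lower in tumors at this limit. Between time points 1104 of 14555 and 1074 of 14638 were. Without a filter on low counts 2 members were higher between time points with BF BSHlow, and the cause was not tested. DESeq2, limma-voom, RLE scaling, a filter at 1 CPM in 3 libraries, all 23 libraries in one fit and only members with whole counts kept each count within 1.5 times the value reported.

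The share of counts from members was 2.06% and 2.19% at 2 weeks and 0.892% and 1.01% in tumors (BF BSHlow and BF BSHhigh) on TMM-scaled library sizes. Without mitochondrially encoded genes it was 1.96% and 1.99% at 2 weeks, 1.61% in BF BSHhigh non-tumor tissues and 1.14% in BF BSHlow tumors.

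Leaving out 1 library at a time gave 11 (without replicate 1 of the non-tumor tissues) to 48 (without replicate 4) members lower between time points with BF BSHlow and a median of the members in BF BSHlow tumors of -0.97 to -0.76 (without replicate 4 of the non-tumor tissues). With BF BSHhigh 56 to 71 members were lower in tumors and 63 to 76 between time points. The counts over all genes in fits without a library are not given here, so these counts of members cannot be set against them. Medians of BF BSHhigh against BF BSHlow were 0.07 to 0.26 in tumors, -0.16 to 0.00 in non-tumor tissues and 0.01 to 0.17 at 2 weeks, and no member was called in any of these fits.

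Equal replicate numbers are not said to mark an animal, and the deviations of libraries with equal numbers correlated between -0.23 and 0.32. For BF BSHlow tumors and non-tumor tissues, which could come from the same animals, the correlations were 0.189, -0.107, 0.00303 and 0.0885. The equal number was the best match for replicates 1 and 4. With 4 libraries in a group this cannot tell whether equal numbers mark an animal. With a replicate block, 12 members in place of 27 were lower between time points with BF BSHlow and 64 in place of 71 with BF BSHhigh, and 75 were lower in BF BSHlow tumors as without it, while Ndufa4l2 lost its call there. The counts over all genes with this block are not given here. No paired analysis was possible for BF BSHhigh tumors because their columns carry no numbers.

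Cox6a2, Cox8b and the pseudogenes Cox6c2 and Ndufs6b had too few counts to be tested, so differences of theirs were not detectable at this depth.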

Other observations

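AA467197, also known as Nmes1, encodes a protein related to Ndufa4 that is described to take its place in complex IV. It is no member by name and was chosen after the values of Ndufa4 were seen. It was at 396, 436, 393 and 514 CPM in BF BSHlow and 447, 384, 498 and 455 CPM in BF BSHhigh non-tumor tissues. In tumors it was at 16.9, 16.1, 26.9 and 13.2 CPM with BF BSHlow (log2 fold change -4.60, standard error 0.24, adjusted p = 1.54e-06 from edgeR) and at 196, 76.9 and 55.3 CPM with BF BSHhigh (log2 fold change -2.04, standard error 0.41, adjusted p = 0.00318 from edgeR). It thus fell in the tumors of both strains, in which Ndufa4 rose. Every BF BSHhigh tumor was above every BF BSHlow tumor, a difference that did not pass with edgeR (log2 fold change 2.57, standard error 0.44, adjusted p = 0.0536) and passed with DESeq2 (adjusted p = 1.67e-07), with total count scaling (0.0479), without a filter on low counts (0.0113), with all 23 libraries in one fit (4.03e-05) and without tumor c (0.0214). Its adjusted p was at most 0.138 over the alternatives run. The interaction of tissue and strain passed with edgeR (log2 difference 2.55, standard error 0.46, adjusted p = 0.0172) and did not with limma-voom (adjusted p = 0.0988). Tumor a was again the highest.

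At 2 weeks AA467197 was at 429, 585, 241 and 333 CPM with BF BSHlow and 623, 515, 524 and 623 CPM with BF BSHhigh. Between the time points it did not pass with BF BSHlow (log2 fold change 0.12, standard error 0.24, adjusted p = 0.72 from edgeR). It fell with BF BSHhigh (log2 fold change -0.34, standard error 0.11, adjusted p = 0.0282 from edgeR), a call that was lost with total count scaling, with all 23 libraries in one fit and without any 1 of 3 libraries (adjusted p between 0.0525 and 0.676). Ndufa4 fell in both strains.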
